A study of Bos taurus with 8 samples.

Results

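The genes described here were 10 secreted mediators of inflammation: the chemokines CXCL8, CCL2, CXCL5, CXCL12 and CXCL16, the interleukin-1 family members IL1A, IL1B, IL1RN and IL18, and the colony-stimulating factor CSF1. They were matched by name, through the RefSeq accession that each array probe carries. The arrays held 24 probes for the 10 genes, among 12603 named genes in all. All 10 passed the filter on low signals, which left 10957 genes for testing.

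Chemokines are small secreted proteins that direct the movement of cells through receptors on the cell surface, and many of them are made on demand by stromal cells after an inflammatory signal. Interleukin-1 alpha and beta act on a shared receptor whose relay runs through MYD88 to NF-kB, and the interleukin-1 receptor antagonist occupies that receptor without starting the relay. In ruminant and other mammalian pregnancy, trophoblast and the lining of the uterus both make members of these families.

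RNA was measured in 6 lines of stem-like cells derived from cattle embryos (eSLCs) and in somatic cells (SCs) at 2 passages, all from HanWoo cattle, each on 1 one-colour Agilent bovine array. eSLCs are colonies grown out of blastocysts on a mitomycin-C inactivated murine STO feeder layer, in a 3i medium that holds the inhibitors PD184352, SU5402 and CHIR99021 throughout. The embryos were in vitro produced (IVP, line I2 of passage 35 and line I9 of passage 30), made by somatic cell nuclear transfer (NT, line N2 of passage 36 and line N7 of passage 30) or parthenogenetic (PA, line P1 of passage 31 and line P4 of passage 36). SCs grew in DMEM with FBS, without the inhibitors, at passages 5 (SC P5) and 10 (SC P10). A feeder layer is described for eSLCs alone, so that cell type, feeder layer, medium and passage cannot be told apart in any comparison with SCs. Each line comes from 1 embryo and each group has 2 arrays, and nothing in the labels says that the SC passages are separate cultures, so that p-values measure only the spread between these arrays.

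Slide 1 carried the arrays of I2, I9, N7 and SC P5, and slide 2 the other 4, which put both IVP lines on one slide and both PA lines on the other. Between 71.2% and 76.7% of spots were well above background, and none was saturated. Marker genes set the groups apart: 11 of 12 tested trophectoderm markers were called higher in eSLCs, with summed signals of 487884 to 1.40e+06 against 13232 to 13604 in SCs, and 9 of 11 tested fibroblast markers were called lower. Of 3 tested epiblast markers SOX2 was called lower, at 46.8 to 99.4 against 459 and 551 in SCs. POU5F1 lay above both SC arrays in all 6 lines, at 30.7 to 898 against 16.3 and 26.02, and NANOG was well above background in 5 of 6 eSLC arrays and in 0 SC arrays, but neither was called (limma, adjusted p = 0.164 and 0.208). Signals below are normalized so that the 75th percentile of an array is 1000, and values under 13.3 were raised to that floor before log2 was taken. A bulk signal cannot tell fewer cells of a type from less RNA per cell.

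A gene was called where limma's adjusted p was under 0.05 and the difference at least 2-fold, over all genes tested. Against SCs, IL18 was higher in the 6 eSLC arrays, and CXCL5 and CXCL12 were lower. These 3 of the 10 genes compare with 35.4% of all genes tested (19.7% higher and 15.7% lower). On the brightest probe of each gene, the eSLC and SC arrays did not overlap for 7 of the 10, against 57.6% of all genes. Further probes of CXCL8 and IL1B, which are among these 7, did overlap. The median difference of the 10 was -0.85 on the log2 scale against 0.23 for all genes tested.

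**Figure D1:**
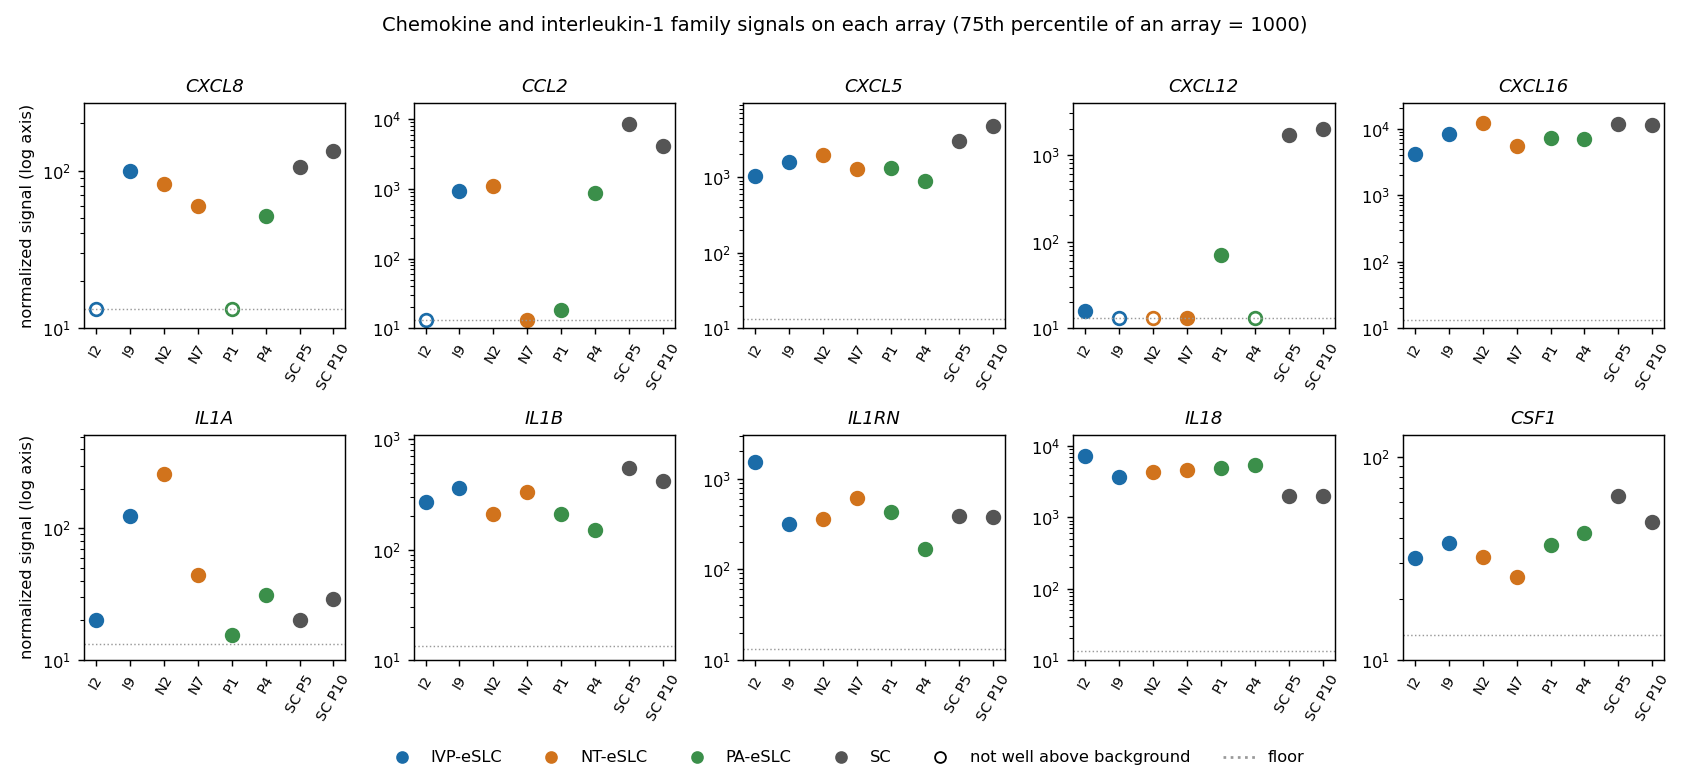
Normalized signal (log axis, 75th percentile of an array = 1000) of the brightest probe of each of the 10 genes on each of the 8 arrays, coloured by embryo origin or SC. Open circles were not well above background and the dotted line is the floor of 13.3. CXCL12 reached 1712 and 1971 in SCs and at most 70.2 in an eSLC line, while IL18 was above both SC arrays in every eSLC line.

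CXCL12, a homeostatic chemokine of stromal cells that acts through CXCR4, had the largest called difference of the 10. Its signal was 1712 in SC P5 and 1971 in SC P10, and 16.02 in I2, 5.63 in I9, 2.27 in N2, 9.43 in N7, 70.2 in P1 and 6.48 in P4. Both SC arrays lay far above all eSLC arrays, of which only I2, N7 and P1 were well above background and 4 stood at the floor. CXCL12 thus passed the filter on low signals through SCs alone, the group where it was high. The difference was -6.67 (SE 0.59; adjusted p = 0.000398 by limma), or 102-fold with the floored values, so its size depends on the floor. All 4 CXCL12 probes were lower in eSLCs, by -6.67 to -2.61, and the 2 smallest of these differences came from probes at the floor on all 6 eSLC arrays.

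CXCL5, a neutrophil attractant of epithelial and stromal cells, was lower in eSLCs but clearly present. The signal was 1045 in I2, 1588 in I9, 1964 in N2, 1283 in N7, 1333 in P1 and 886 in P4. SC P5 stood at 3015 and SC P10 at 4759.5. The groups did not overlap, and the SC passages themselves differed by 0.66 on the log2 scale. The difference was -1.54 (SE 0.32; adjusted p = 0.0105 by limma), or 2.90-fold lower. The call was lost with the SC arrays counted as 1 sample (adjusted p = 0.0652) and without SC P10 (-1.21, adjusted p = 0.106).

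CXCL8, the interleukin-8 gene and another neutrophil attractant, is a neighbour of CXCL5: the RefSeq annotation places 1 coding gene between them, followed by PPBP, PF4, CXCL2, CXCL3 and GRO1. CXCL8 signal was 9.26 in I2, 99.5 in I9, 82.6 in N2, 60.2 in N7, -2.52 in P1 and 51.7 in P4. In SCs it was 106 at passage 5 and 135 at passage 10. On the further CXCL8 probes I9 and N2 exceeded SC P5. They were at 44.7 and 54.1 against 43.9 (log2 difference of the groups -1.07), and at 59.1 and 59.3 against 55.3 (-0.52). On the brightest probe, given above, all eSLC arrays lay below the SC arrays, but I9 came close to SC P5. There I2 and P1 were not well above background. The difference of -1.55 (SE 0.85; adjusted p = 0.181 by limma) was not called, and its 95% interval ran from -3.64 to 0.53. Without I9 it was called (-2.04, adjusted p = 0.0474).

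CCL2, the monocyte attractant MCP-1, separated the eSLC lines from each other more than any of the other 9 genes. SC signals were 8474 (SC P5) and 4183 (SC P10). Among eSLC lines it was 925 in I9, 1113 in N2 and 872 in P4, but 6.88 in I2, 10.8 in N7 and 18.3 in P1. One line of each origin was thus high and one low, an 83.8-fold range with I2 and N7 at the floor, and all 6 lay below SCs. With that range the difference of -5.64 had a standard error of 2.49 and an adjusted p of 0.111 (limma), with a 95% interval from -11.7 to 0.46. The second CCL2 probe ordered the 6 lines in the same way, from 172 in N2 to -0.73 in I2. On the authors' normalized values CCL2 was called (-5.70, adjusted p = 3.77e-17 by limma), where the fit gave all genes 1 common spread and so did not use the range among these lines.

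CXCL16, a membrane-anchored chemokine that is shed by ADAM10, was bright in all samples. Its signal was 4166 in I2, 8181 in I9, 12027 in N2, 5419 in N7, 7300.4 in P1 and 6963 in P4. The SC arrays had 11843 at passage 5 and 11114 at passage 10. N2 exceeded both SC arrays, so the groups overlapped. The difference of -0.72 (SE 0.38; adjusted p = 0.168 by limma) had a 95% interval from -1.66 to 0.21.

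**Figure D2:**
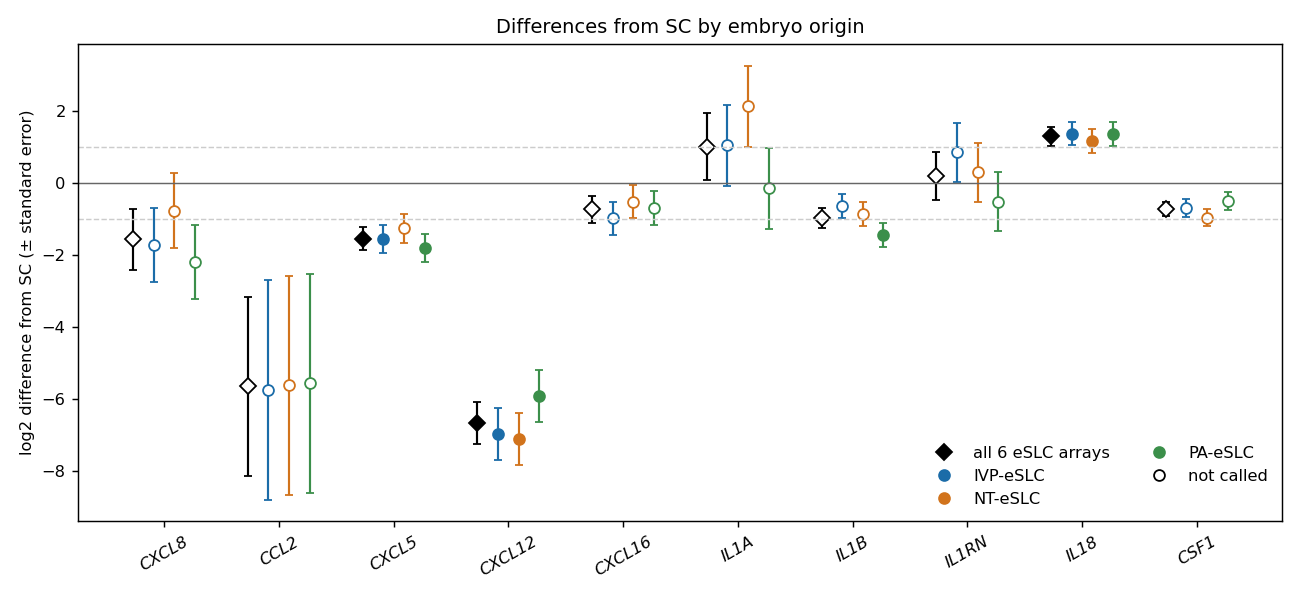
Difference in log2 signal from SC (mean ± standard error of the limma fit) for each of the 10 genes, over all 6 eSLC arrays and for IVP-, NT- and PA-eSLCs, each against the same 2 SC arrays. Filled symbols were called and dashed lines mark a 2-fold difference. CXCL12 and IL18 were called in all 3 origins, the IL18 calls being lost with the slide as a block and without either SC array, and the bars of CCL2 are the widest.

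Neither of the interleukin-1 agonists was called between eSLCs and SCs. IL1A, the form that is active before processing, had a signal of 20.1 in I2, 125 in I9, 259 in N2, 43.98 in N7, 15.5 in P1 and 31.3 in P4. SC P5 stood at 20.1 and SC P10 at 29.1. I9 and N2 stood above all other arrays, N7 and P4 lay just above both SC arrays, and I2 and P1 did not, so that the groups overlapped. The difference of 1.02 (SE 0.92; adjusted p = 0.396 by limma) was not called. Leaving out 1 array gave 0.58 (without I9) to 1.46 (without I2). The second IL1A probe lay below the floor on all 8 arrays, with its highest signals, 10.7 and 8.79, also in N2 and I9.

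IL1B, whose precursor is cut by caspase-1, had a signal of 271 in I2, 361 in I9, 210.5 in N2, 336 in N7, 210.5 in P1 and 149 in P4. SC P5 was at 552 and SC P10 at 421, so that on this brightest probe no eSLC array reached an SC array. The difference of -0.97 (SE 0.27) had an adjusted p of 0.0298 by limma but was 1.97-fold, just under the limit, and IL1B was not called. It was called with the arrays scaled to their median (-1.02, adjusted p = 0.0226) and without I9 (-1.04), N7 (-1.09) or P1 (-1.06). Of its 4 probes 3 were lower in eSLCs, and the fourth was not well above background on any array. The dimmer detected probes gave -0.48 and -0.66, and the groups overlapped on each. I2 exceeded SC P5 there (80.2 against 58.6, and 36.4 against 33.6), as did I9 at 61.4 on the first of them. The mean over the probes of IL1B gave -0.53.

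IL1RN, the receptor antagonist, showed no difference between eSLCs and SCs that exceeded the spread among lines. Its signal was 1536 in I2, 317 in I9, 363 in N2, 614 in N7, 431 in P1 and 166 in P4. In SCs it was 384 at passage 5 and 383 at passage 10. The SC arrays lay inside the eSLC range, which ran 9.23-fold from P4 to I2. The difference was 0.21 (SE 0.67; adjusted p = 0.811 by limma; 95% interval -1.42 to 1.85), and its sign turned without I2 (-0.16) or without P1 (-0.01). It was 0.80 within slide 1 and -0.37 within slide 2. I2 was the highest line and P4 the lowest on all 3 IL1RN probes. In the RefSeq annotation IL1A, IL1B and IL1RN lie in 1 cluster, with 8 coding genes between IL1A and IL1RN that include IL1B and IL36RN.

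IL18, an interferon-gamma inducing cytokine stored as a precursor in epithelia, was the only 1 of the 10 that was called higher. The signal was 7256 in I2, 3737 in I9, 4382 in N2, 4665 in N7, 4931 in P1 and 5482 in P4. The SC arrays had 1998 at passage 5 and 2016 at passage 10. All 6 lines lay above both SC arrays, and the lines ranged 1.94-fold, close to the median range of 1.92-fold over 9872 genes well above background in all 6. The difference was 1.31 (SE 0.27; adjusted p = 0.00958 by limma), or 2.47-fold, on the single IL18 probe. The call was lost without SC P5 (1.30, adjusted p = 0.0833), without SC P10 (1.31, adjusted p = 0.0781), with the SC arrays as 1 sample (adjusted p = 0.0804) and on the authors' normalized values (0.76, adjusted p = 0.451), all in the same direction.

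CSF1, the growth factor of macrophages, was dim in both groups. Its signal was 31.7 in I2, 37.7 in I9, 31.9 in N2, 25.7 in N7, 36.9 in P1 and 42.1 in P4. SC P5 stood at 64.4 and SC P10 at 48.0. The groups did not overlap, and the difference of -0.71 (SE 0.20; adjusted p = 0.0278 by limma) was 1.64-fold and not called. It was -1.04 within slide 1 and -0.39 within slide 2. The second CSF1 probe was well above background in both SC arrays and in no eSLC array, at signals below the floor.

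**Figure D3:**
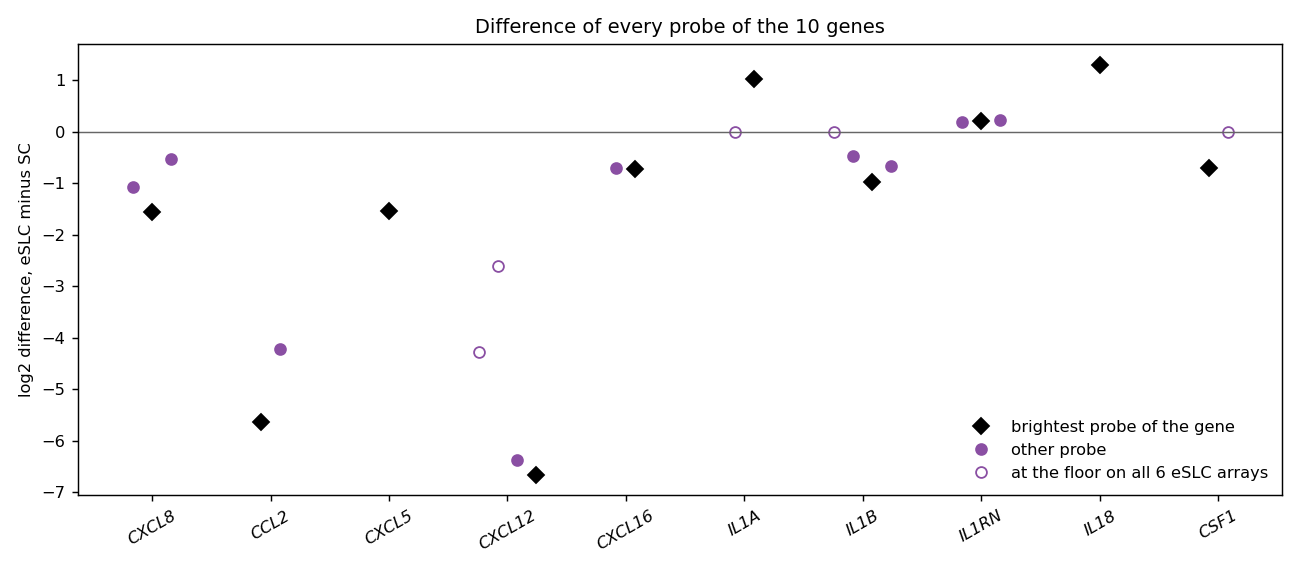
Difference in mean log2 signal between the 6 eSLC and the 2 SC arrays for each of the 24 probes of the 10 genes. Diamonds are the brightest probe of a gene and open circles are probes at the floor on all 6 eSLC arrays. All probes of CXCL8, CCL2, CXCL12 and CXCL16 lie below 0 and all 3 of IL1RN just above it.

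Each embryo origin was set against the same 2 SC arrays, so these comparisons are not independent. In IVP-eSLCs 3 of the 10 were called (32.3% of all genes), namely IL18 (1.38, adjusted p = 0.0207), CXCL5 (-1.56, adjusted p = 0.0255) and CXCL12 (-6.98, adjusted p = 0.00102). In NT-eSLCs 2 were called (29.8% of all genes), IL18 (1.17, adjusted p = 0.0372) and CXCL12 (-7.11, adjusted p = 0.00102), while CXCL5 had -1.25 with an adjusted p of 0.0531, and was called with the slide as a block (0.0404) and in 5 further alternatives (0.0444 to 0.0494). PA-eSLCs had 4 (35.2% of all genes): IL18 (1.37, adjusted p = 0.0191), CXCL5 (-1.80, adjusted p = 0.0145), CXCL12 (-5.91, adjusted p = 0.00189) and IL1B (-1.44, adjusted p = 0.0179). These tests were by limma. With the slide as a block 0 of the 10 were called higher in each origin, so that IL18 lost its call in IVP-, NT- and PA-eSLCs, and the same held without SC P5, without SC P10 and with the SC arrays as 1 sample. CXCL5 lost its call in IVP-eSLCs in these 4 settings (adjusted p = 0.0573 to 0.147), and in PA-eSLCs with the SC arrays as 1 sample (0.0643) and without SC P10 (0.0934). IL1B lost its call in PA-eSLCs in 3 of the 4, but not with the slide as a block (-1.18, adjusted p = 0.0435). CXCL12 kept its call in each origin in all 4. IL1B in PA-eSLCs also lost its call on the mean of a gene's probes (-0.76) and on the authors' normalized values (-1.67). The methods' adjusted t-test did not call it either, and without P4 it was at -1.20 and not called. Both IVP lines lay on one slide and both PA lines on the other.

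Between origins no difference was called by limma, either among the 10 genes or over all genes (0% called for NT- and for PA- against IVP-eSLCs). At an unadjusted p under 0.05 there were 306 genes for NT against IVP and 568 for PA against IVP, and 0 of the 10 genes in either. The methods' t-test called 0 of the 10 too. The arrays of NT- and IVP-eSLCs overlapped for all 10 genes, while 23.3% of all genes did not overlap there. For IL1B alone did both PA arrays lie below both IVP arrays (35.2% of all genes did not overlap between these origins), with a difference of -0.82 (SE 0.34; adjusted p = 0.852 by limma) and a 95% interval from -1.64 to 0.00026. With 2 arrays an origin these intervals are wide: for CCL2 in NT against IVP it ran from -7.33 to 7.60.

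The spread among the eSLC lines was larger for some of the 10 than for most genes. Among the 7 that were well above background in all 6 lines, IL1A ranged 16.7-fold, more than 97.8% of 9872 genes, and IL1RN more than 95.6%. CXCL16 ranged 2.89-fold, IL1B 2.42-fold, CXCL5 2.22-fold and CSF1 1.64-fold. CXCL8 and CXCL12 ranged 7.50-fold and 5.28-fold with values at the floor.

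I9 and N2 were the 2 highest lines for 5 of the 10: CXCL8, CCL2, CXCL5, CXCL16 and IL1A. Over all genes tested they were the 2 highest for 13.8% (1510.0 of 10957), and this pattern was chosen after the values were seen. On the authors' normalized values it held for 1 of the 10, CCL2, against 4.69% of all genes, and on the scanner signals it held for 3 of the 5 further probes of these genes, 2 of CXCL8 and 1 of CCL2. The lines share neither origin, slide nor passage. They were the 2 lowest for IL18, 1 of the 10 against 16.8% of all genes tested. In the pathway lists described below, the same 2 lines were highest for 4 of 16 other chemokines, 1 of 6 chemokine receptors, 1 of 2 other interleukin-1 family ligands, 0 of 5 receptors of that family, 1 of 7 inflammasome and processing genes, 3 of 21 relay genes, 3 of 14 response genes and 0 of 2 genes of the CSF list. They were the 2 lowest for 1 of the 2 ligands, IL36RN, and for 1 of the 7 inflammasome and processing genes. The count of lowest was 2 of 21 for relay genes, 1 of 14 for response genes and 0 in the other lists. GRO1, IL6 and TNF are given as examples picked after their values were seen. GRO1, a neutrophil attractant next to CXCL3, was at 508 in I9 and 843 in N2, and at 41.1 to 193 in the other 4 lines. IL6 was at 175 in I9 and 386 in N2 and at most 64.4 in the others. TNF was at 286 in I9 and 682 in N2 and at most 90.1 in the others.

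Of 9 tested leukocyte and macrophage markers 4 were called higher in eSLCs (PTPRC, CD14, AIF1 and SPI1) and 0 lower, beside 19.7% and 15.7% of all genes, and the summed signal of the 11 with a probe was 13738 to 45138 in eSLCs and 4641 to 4656 in SCs. AIF1 was at 11683 in I9 and 16252 in N2 and at 1844 to 3512 in the other lines, and was not well above background in SCs. ITGB2 was at 17928 in I9 and 13089.5 in N2, and at 1475 to 4655 in the others. Other markers of the list were highest elsewhere: PTPRC in P1 (27266, against 14019 in I9 and 14957 in N2), TYROBP in P1 (104, against 36.9 and 51.7) and SPI1 in N7 (242, against 68.2 and 71.2). CD14 was highest in N2 and I9, at 494 and 477, close to 475 in P1, and FCER1G was lowest in N2, at 18.0. CSF1R, a receptor for CSF1 found on macrophages and on other cells, was not well above background on any eSLC array, and had 25.5 and 22.4 in SCs. The part of these markers in the values of the 10 genes was not tested.

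**Figure D4:**
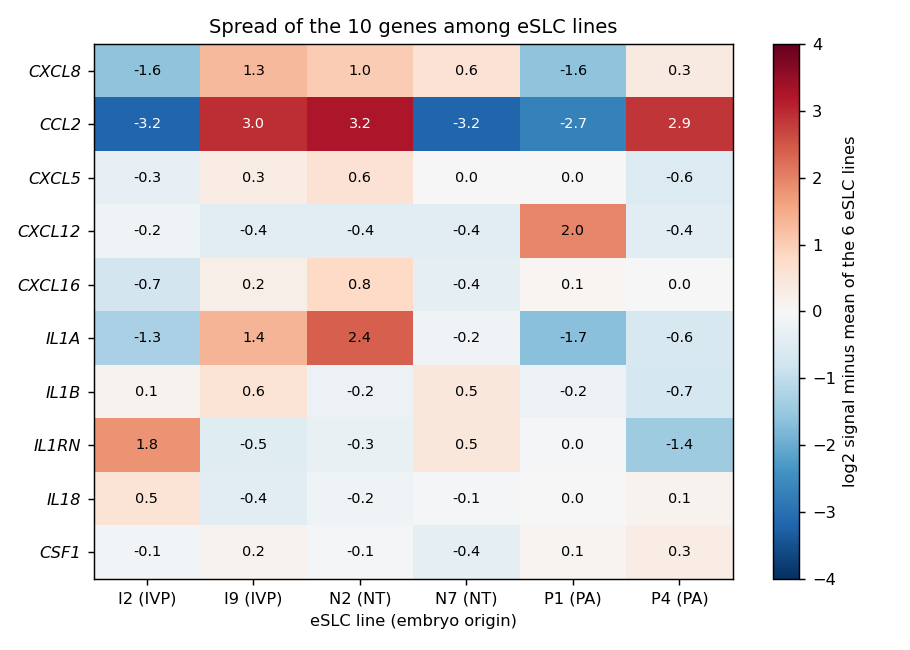
Log2 signal of each of the 10 genes in each eSLC line minus the mean over the 6 lines, with floored values used. CCL2 splits the lines 3 against 3 across origins, IL1A is highest in N2 and I9, IL1RN in I2, and CXCL12 in P1.

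The genes whose log2 signals followed IL1A most closely over the 6 eSLC lines, among 9871 genes well above background in all of them, were CREBL2 (Pearson's r = 0.99), ZYX (0.99), CARMIL1 (0.99), LOC506921 (0.99) and KCNAB3 (0.98). ZYX codes for the focal adhesion protein zyxin, and its signal was 60847 in N2, 49427 in I9 and 22015 to 33809 in the other lines. These 6 points share their normalization, and the ranking describes these arrays only.

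Further genes of the same pathways were taken from 8 lists, counted whole, and up to 4 called genes in each direction were named. Their counts stand beside 19.7% called higher and 15.7% called lower over all genes tested. Where no SC array was well above background, an "at least" fold sets the eSLC mean against the lowest signal well above background on each SC array, while the adjusted p comes from the fit with the common floor. Such genes passed the filter on low signals through eSLC arrays alone, the group where they were high. Without SC P5 limma no longer called CCL26, CCL24, CCL5, IL33, IL36RN, IL1R2, IL1R1, ADAM10, CASP4, REL, SAA3, LIF, IER3 and NFKBIZ. SCs are then 1 array that is assumed to vary like the other groups. The sign of each difference stayed, with CCL26 at 5.82, CCL5 at -4.28, SAA3 at 3.52 and IL33 at 4.04. Of 16 tested other chemokines, 2 were called higher and 3 lower (median -0.33). CCL26, an eotaxin that attracts eosinophils, rose most: its signal was 194 to 5881 in eSLCs against 54.3 and 27.3 in SCs, a difference of 5.32 (SE 0.93; adjusted p = 0.00541 by limma). CCL24, another eotaxin, showed no SC signal well above background, which puts eSLCs at least 4.21-fold higher (log2 difference 1.42 and adjusted p = 0.0129 with the common floor). CXCL3 (-6.80, adjusted p = 0.00107) and CXCL2 (-4.26, adjusted p = 0.00182), neutrophil attractants from the cluster that holds CXCL8, were lower, with eSLC values partly at the floor. CCL5, a T cell attractant, was lower (-3.56, adjusted p = 0.039). GRO1, in the CXCL8 cluster, had -1.36 (SE 1.21) and was not called.

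Of 21 chemokine receptors with a probe, 10 were well above background on no array and 11 on at least 1. The filter left 6 of them for testing, and 1 was called: ACKR3, the scavenging receptor for CXCL12, was at 10.5 to 902 in eSLCs and at 4459 and 8311 in SCs (-5.80, SE 0.83; adjusted p = 0.00255 by limma). CXCR4, the signaling receptor for CXCL12, was at 5.0 to 104 in eSLCs and at 77.4 and 119 in SCs, and was not called (-1.84, SE 0.91). CXCR1 and CXCR2, the receptors for CXCL8 and CXCL5, did not pass the filter. The median of the 6 was -0.76.

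Ligands and receptors of the interleukin-1 family beyond the 10 moved in both directions. IL33, an alarmin held in the nucleus, was at 67.4 to 431 in eSLCs on its brightest probe. On that probe eSLCs were at least 25.9-fold higher than SCs, where IL33 was not well above background (log2 difference 4.04 and adjusted p = 0.00505 with the common floor). Its other probe gave a smaller log2 difference of 1.68. IL36RN, the antagonist of the IL-36 receptor and a neighbour of IL1RN, was at 49.1 to 235 in eSLCs and likewise exceeded SCs by at least 12.7-fold (log2 difference 3.01, adjusted p = 0.00324). These were the only other ligands with a probe (median 3.52, measured against the floor). Of 5 tested receptors 2 were higher and 1 lower (median -0.35). IL18R1, IL18RAP, IL18BP and IL1RAPL1 of that list had no matched probe. SIGIRR, an inhibitory receptor of the family, had 4892 to 7089 in eSLCs against 192 and 152 in SCs (5.09, SE 0.18; adjusted p = 1.42e-05). IL1R2, the decoy receptor, was higher by 2.14 (adjusted p = 0.0478), a call that 13 of 20 alternatives lost. IL1R1, the signaling receptor, was lower (-1.52, adjusted p = 0.0054). IL1RL1, the receptor for IL33, was at 27206 to 33578 in eSLCs and at 34985 and 39433 in SCs and was not called. All these tests were by limma.

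The list of inflammasome and processing genes had 7 tested members of 13, of which 1 was higher and 3 lower (median -1.41). No probe was matched to CASP1, the caspase-1 gene, or to NLRP1, AIM2, NEK7 and ADAM17, so the median leaves them out. GSDMD, the pore protein through which mature IL1B and IL18 leave the cell, was at 16.5 to 47.2 in eSLCs and at 2772 and 2984 in SCs, a difference of -6.87 (SE 0.40; adjusted p = 8.13e-05 by limma). The 3 GSDMD probes ran from -6.87 to -2.81. CASP4, an inflammatory caspase, was lower (-2.77, adjusted p = 0.0231), and so was CAPN2, a calpain subunit (-2.34, adjusted p = 0.000702). ADAM10, the sheddase of CXCL16, was higher by 1.58 (adjusted p = 0.00999). PYCARD, the inflammasome adaptor, was at 1285 in I9 and 801 in N2 and at 86.9 to 231 in the other lines, and was not called (-1.41, adjusted p = 0.33).

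The relay from the receptor to NF-kB was measured for 21 genes, with a median of 0.03, and 17 were not called. MYD88 itself was at 5276 to 6417 in eSLCs and at 6070.3 and 5237 in SCs. REL, an NF-kB subunit, had eSLC signals at least 16.3-fold higher than SCs (log2 difference 3.37, adjusted p = 0.00505), while RELA, another, was lower (-1.11, adjusted p = 0.00409). RELA lost its call without SC P10 (-0.98, under 2-fold) and on the authors' normalized values (-0.91, adjusted p = 0.343). IRAK3, an inhibitor of the relay, was lower (-1.98, adjusted p = 0.000191) with all eSLC values at the floor. The kinase IRAK2, measured on every array, was lower too (-1.25, adjusted p = 0.0015). IRAK2 lost its call on the mean of its 3 probes (-0.64).

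Genes known to respond to NF-kB or interleukin-1 held calls in both directions. Of 14 tested, 5 were called higher and 3 lower (median 0.10). PTGS2, the inducible prostaglandin synthase and also 1 of the trophectoderm markers above, was at 47989.5 to 112271 in eSLCs and at 257 and 97.5 in SCs, a difference of 8.96 (SE 0.46; adjusted p = 4.76e-05 by limma). SAA3, an acute phase protein, was higher by 4.08 (adjusted p = 0.00655) and the adhesion molecule ICAM1 by 2.59 (adjusted p = 0.000655). LIF, a cytokine of the IL6 family, exceeded SCs by at least 7.23-fold (log2 difference 2.20, adjusted p = 0.0486), but 14 of 19 alternatives lost that call. IRF1, a transcription factor of interferon responses, was at 7.80 to 87.1 in eSLCs and at 10324 and 4370.3 in SCs (-7.77, SE 0.56; adjusted p = 0.000184). IER3, an early response gene, was lower (-2.03, adjusted p = 0.00509) and so was NFKBIZ, an NF-kB cofactor (-2.01, adjusted p = 0.008). The I2 and P1 values of IRF1 stood at the floor. These values are from the brightest probes. The probe with the smallest difference gave -1.61 for IRF1, -0.49 for NFKBIZ, 0.36 for ICAM1, 4.56 for PTGS2 and 0 for LIF. Of the CSF list, CSF1R and IL34 were tested (median -0.53) and none was called: limma gave CSF1R an adjusted p of 0.00438, but its difference of -0.85 was under 2-fold with all eSLC values at the common floor. Set against the lowest signal well above background on each eSLC array, SCs were at least 2.38-fold higher in CSF1R. IL34 had a difference of -0.21 on its brightest probe and of -3.85 on its other probe.

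**Figure D5:**
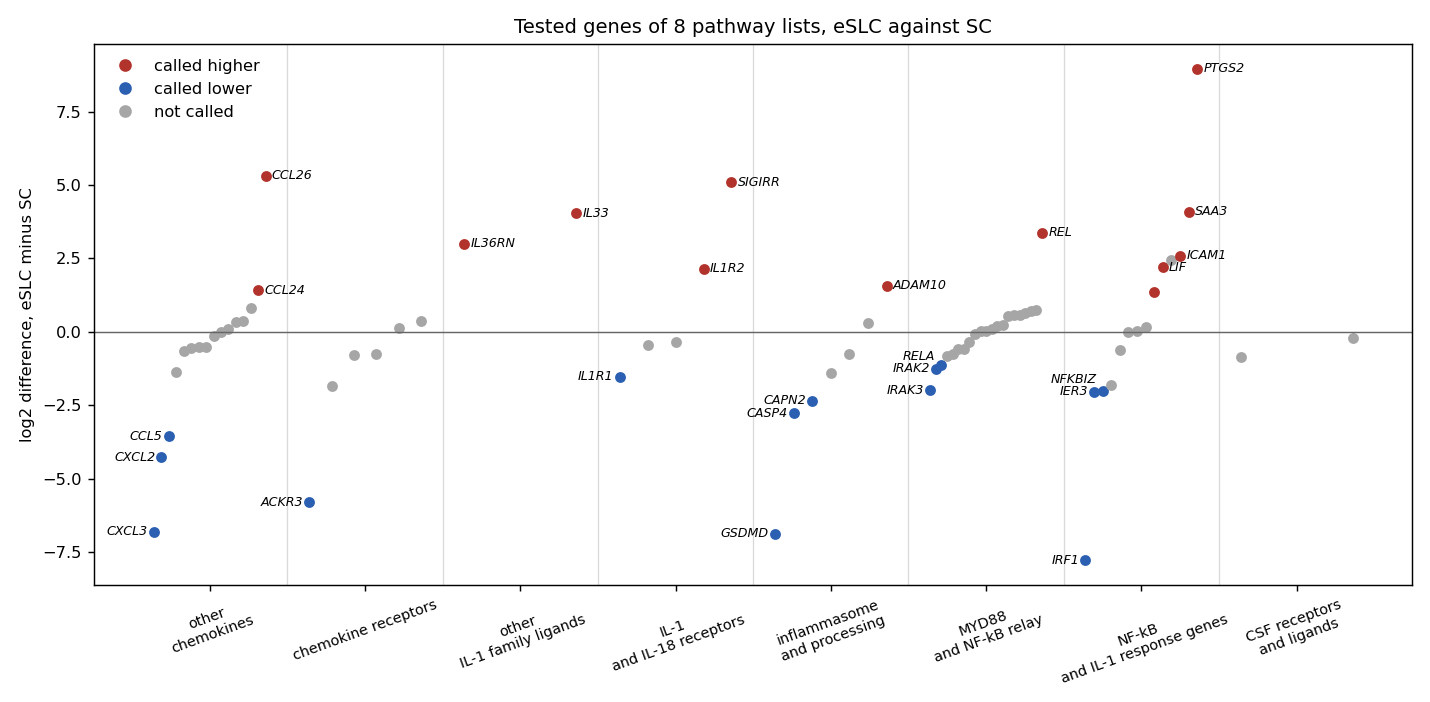
Difference in log2 signal (eSLC minus SC) of the tested genes of 8 pathway lists, ordered within each list. Red genes were called higher, blue genes lower and grey genes not called. On their brightest probes the named genes range from PTGS2 at 8.96 to IRF1 at -7.77.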

How the data were processed

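Total RNA was labelled with Cy3 and hybridized to 1 array a sample. The authors deposited scanner output of Feature Extraction version 11.5.1.1 with linear signal intensities, and a series matrix of intensities normalized with GeneSpring, whose steps are not given in the sources used here. Of 45220 spots an array, 43803 were no controls, for 43653 probes, and 1 to 11 outlier spots an array were left out. Background-subtracted intensities were scaled so that each array's 75th percentile (1192 to 4092 scanner units, or 75.3 to 136 times its dimmest spot well above background) became 1000, values under 13.3 were set to 13.3, and log2 was taken. The processed signal was left aside, because in 6 of 8 files it did not follow its row (Spearman correlation with the background-subtracted signal 0.159 to 0.215, against 0.973 in I2 and 0.971 in N2). Accessions named 26743 probes through the RefSeq table of the ARS-UCD2.0 assembly, which gave 12603 genes. As the array design uses another build, no coordinates are given. For the 8164 genes with more than 1 probe the brightest was used. No sequences of probes or genes were analysed here.

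Genes entered the test when all arrays of some group were well above background. The limma package (3.58.1, under R 4.3.3) was fitted to all 8 arrays with a mean per group and 4 residual degrees of freedom, and gave differences, standard errors and Benjamini-Hochberg adjusted p-values, and eSLC is the mean of the 3 origin means. On simulated data for eSLC against SC, with 200 of 10957 genes changed 4-fold, it recovered 70.5% with 7 unchanged genes called. The same simulation for IVP, NT and PA against SC recovered 48.5%, 54% and 56%, and for NT and PA against IVP 52.5% and 49%. The number of arrays, 2 per origin and 2 of SCs, limits the precision. All 10 members are named, and for each pathway list up to 4 called genes each way. Members and lists were chosen with earlier results of these data known. The methods' selection by present calls and a 2-fold difference has no test, so limma was the main test and the methods' t-test an alternative, beside other scalings, backgrounds, filters and probe rules, the slide as a block and each array left out. The files hold no mean signal, so normexp used the median signal. Each array's own floor was added after seeing the data. Plots were made in Python 3.11.15 using matplotlib 3.10.9.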

Additional observations from a re-analysis of the deposited data

Results flagged for a closer look

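CXCL12 in line P1 stood apart from the other 5 eSLC lines. Its signal of 70.2 compares with 2.27 to 16.02 in the others, and its gap to the nearest line was 0.888 of the whole range on the log2 scale, above the critical value of 0.625 for 6 arrays. Of the 6 arrays 4 stood at the floor, and with the signals as measured, without the floor, the ratio was 0.431, below that critical value. A second CXCL12 probe was also well above background in P1 alone among eSLC lines, at 49.6. All 10 genes were checked in this way, and chance marks about 1 group in 20.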

How the results depend on the processing

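Over 22 settings the number of the 10 genes called against SCs changed as follows. For eSLCs it was 3, but 4 with arrays scaled to the median and 1 with the SC arrays as 1 sample. Requiring signals well above background on all 8 arrays left 7 of the 10 for testing, and gave 2. Leaving out 1 array gave 1 to 5. For IVP-eSLCs it was 3, and 1 with the SC arrays as 1 sample and with the slide as a block. The methods' t-test gave 1, adjusted or not. The filter on all 8 arrays gave 2, and so did fitting only the groups compared. Leaving out 1 array gave 1 to 3. For NT-eSLCs it was 2, with 4 after quantile normalization, 1 without a filter and 1 with the SC arrays as 1 sample. It was 3 when scaled to the median, with normexp background, on series matrix values and with each array's own floor. Leaving out 1 array gave 1 to 2. For PA-eSLCs it was 4, with 1 for the SC arrays as 1 sample, 2 on series matrix values and 1 by the methods' t-test after adjustment. It was 3 by that test unadjusted and with the slide as a block. The filter on all 8 arrays and the mean of a gene's probes gave 3 as well. Leaving out 1 array gave 1 to 4. The cause was not tested, beyond the fewer samples where arrays were merged or left out. Between origins 0 of the 10 were called in every setting.

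CXCL12 kept its call for eSLCs over all origins in the 20 alternatives run for it, between -7.38 and -4.98. The filter on all 8 arrays left it out of the test, because it passed the main filter through SCs alone, where it was high. Taken by origin it ran from -8.39 to -4.59, and the adjusted t-test of the methods no longer called it for PA (-5.91, adjusted p = 0.100). IL18 lost its call without SC P5 and without SC P10, and CXCL5 without SC P10 but not without SC P5 (-1.87, adjusted p = 0.0448). With the slide as a block IL18 stayed called over all eSLCs but in none of the 3 origins, where 0 of the 10 were called higher. On series matrix values CCL2 was called (-5.70, adjusted p = 3.77e-17); limma gave these values 1 common spread, with a standard error of 0.65 for CCL2 and CXCL12 alike, and in them SC P5 and SC P10 agreed within 1% for 9359 probes, against 1043 for the scaled scanner signals. IL1RN reversed without IVP replicate 1, I2 (-0.16), and without PA replicate 1, P1 (-0.01), and leaving out 1 array gave -0.16 to 0.59. Among the other named genes CCL24, CCL5 and CASP4 each lost their call in 7 alternatives. CCL26, IL33, REL, ADAM10, IER3 and NFKBIZ lost theirs without SC P5, without SC P10 and with the SC arrays as 1 sample, with adjusted p up to 0.0911, as did SAA3 (0.0943), IL36RN (0.0525) and IL1R1 (0.0667) without SC P5.

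Over all genes, eSLC against SC gave 2155 higher and 1719 lower, and 1342 and 1126 with the SC arrays as 1 sample. IVP gave 1938 and 1604, NT 1735 and 1528 and PA 2229 and 1633. With the SC arrays as 1 sample these were 1060.0 and 960.0, 943 and 867, and 1303 and 1001. The methods' t-test with adjustment called 445 and 439, 158 and 153, and 940.0 and 726. Without SC P5 the counts were 1285 and 1077 for eSLC, 1078 and 939 for IVP, 883 and 843 for NT and 1257 and 957 for PA. Without SC P10 they were 1164 and 951, 1056 and 904, and 1445 and 1032 for the 3 origins. NT against IVP gave 0, but 174 higher and 59 lower on series matrix values and 131 and 20 without N2; PA against IVP gave 25 and 12 on series matrix values.

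No paired analysis was possible because the labels give every sample the same replicate number, and numbers within a group were given in accession order. The slide as a block is a separate alternative. CXCL8, CCL2 and CXCL12 lie at or near background in part of the eSLC lines, so that their size there is limited by the floor.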
